A study of Mus musculus with 20 samples.

Results

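Day 14 of XEN-to-iPS reprogramming was compared with day 7 in 4 of the 20 single-cell RNA-seq libraries of the series, which held 19336 of 110725 cells after filtering. The members were all cells of these 4 libraries with at least 500 genes and under 5 UMIs, counted over Col1a1, Col1a2 and Col3a1, which left out feeder fibroblasts. There were 2 libraries per day, and all 4 came from the same sequencing project. UMIs (unique molecular identifiers, one per captured transcript) were summed per library, because cells of a library are not independent samples.

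Both days were sampled from the 3F-4 XEN line, an extraembryonic endoderm stem cell line of genotype Col1A1TetO-OKSmCh/TetO-OKSmCh, R26M2rtTA/M2rtTA and Oct4-GFPTg/Tg. In these cells doxycycline switches on a cassette of Oct4, Klf4, Sox2 and mCherry. Induced mCherry-positive cells were grown on mitotically inactive mouse embryonic fibroblasts in serum and LIF, with ascorbic acid, a GSK3β inhibitor and doxycycline. Induction was thus the same on both days, while the time under it differed. At each day, 4 fractions sorted by SSEA1 and Oct4-GFP were mixed again in about equal parts, and shares of cells in these libraries are therefore not shares of the culture. Summed levels and fold changes likewise describe these mixtures and not the culture. What each fraction held may also differ between the days, which was not tested. The line is a single derivation, the study describes the 2 libraries of a day as technical duplicates, and p-values measure only the spread between these libraries. Y-linked transcripts (Ddx3y, Eif2s3y, Kdm5d and Uty) summed to 6.72 and 15.8 CPM (counts scaled to 1000000 UMIs per library) in the day 7 libraries and to 7.66 and 1.81 CPM in those of day 14. Whether the libraries of a day came from 1 culture is not given in the sources used here, so this spread may be technical or may include differences between cultures. Transcripts of the cassette and of the endogenous genes cannot be told apart in the counts, and in summed counts fewer cells of a type and less RNA per cell cannot be told apart either.

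XEN cells derive from the primitive endoderm of the blastocyst, which forms the parietal and the visceral endoderm of the yolk sac. Parietal endoderm secretes laminin, nidogen and type IV collagen into a thick basement membrane, and GATA factors maintain this identity. During reprogramming, cells lose such a somatic or extraembryonic programme and cross a barrier set in part by the p53 pathway. They also activate Pou5f1, Nanog and Sox2 from their own loci. In this conversion the study places Pou5f1 among the early genes, and Nanog and full loss of the endoderm programme at the end.

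The libraries held 2604 and 5490 cells at day 7 and 5028 and 6214 at day 14, with total counts between 50518758 and 89151808 UMIs. The median cell had 18206.5 and 15509.5 UMIs at day 7 and 11719 and 13700.5 at day 14. Mitochondrial transcripts made up 1.75% and 1.74% of the UMIs of the median cell at day 7, and 2.21% and 2.74% at day 14. Replicate 1 of day 7 stood apart: 10.2% of its cells were removed as feeders against 0.2% to 0.613% in the other libraries. Its remaining cells summed to 489 CPM over 22 fibroblast markers, against 172 in its duplicate and 147 and 200 at day 14. Over the 10 markers of pluripotent cells it had 5.18 CPM, against 37.3 in its duplicate and 51.1 and 49.9 at day 14. Pairs of these libraries shared between 15 and 45 cell barcodes, at most 0.895% of the smaller library. Gata4, Gata6, Sox17 and Sparc were detected in all 4, though detection in a sum does not measure how many cells kept XEN identity. With CPM scaled over all 20 libraries, Gata4 was at 75.7 and 65.4 at day 7 and 99.2 and 100.2 at day 14. In uninduced XEN cells, from another sequencing project, it was at 203.5 and 199.3, and in XEN-iPS cells at 3.64 and 0.453. Sox7 was at 5.83 and 3.64, then 12.2 and 11.5, against 99.1 and 59.7 in XEN. Foxa2 was at 61.8 and 65.4, then 76.9 and 78.5, against 73.5 and 65 in XEN. Markers of trophoblast were similar on both days (26.2 and 32.3 against 30.3 and 35.3 CPM), and those of blood and macrophages summed to 30.2 and 9.9 against 12.9 and 8.08 CPM.

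The differences between the days overlapped in size with those between duplicates. Across the 13782 genes tested, the SD of the log2 ratio, with 0.5 CPM added to each level, was 0.485 between the day 7 duplicates and 0.392 between the day 14 duplicates. Between a day 7 and a day 14 library it ranged from 0.476 to 0.633. The SD depends on the amount added. With edgeR's smaller prior count it was 0.74 and 0.561 between the duplicates of day 7 and day 14. Between the means of the days it was 0.632. Means carry less library noise than single libraries, so this value is not directly comparable with those of the duplicates. A difference of at least 2-fold was seen in 575 genes between the day 7 duplicates, in 359 between the day 14 duplicates, and in 621 to 1268 between libraries of different days. In edgeR's quasi-likelihood test with Benjamini-Hochberg adjustment, 1 gene of 13782 (0.00726%) passed an adjusted p of 0.05, and no gene did so downwards (0%). An unadjusted p under 0.05 was reached by 12.9% of genes, 911 of them higher (6.61%) and 863 lower (6.26%) at day 14. DESeq2, run on the same sums, called 544 genes (3.95%), of which 329 were higher (2.39%) and 215 lower (1.56%). The 2 day 14 libraries lay above both day 7 libraries for 3137 genes (22.8%) and below both for 3060 (22.2%), and the counts over gene lists that follow are read against these shares.

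**Figure D1:**
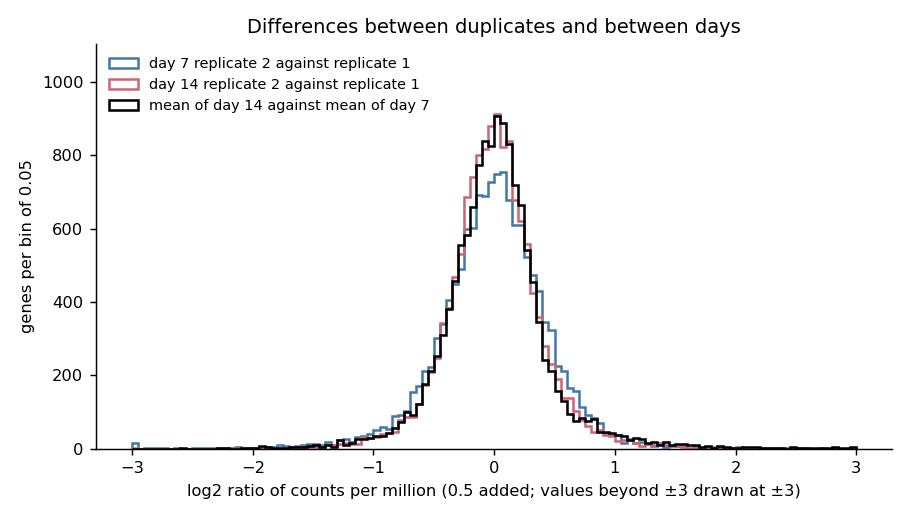
Number of genes (y axis, per bin of 0.05) by log2 ratio of CPM with 0.5 added (x axis, values beyond ±3 drawn at ±3), for the day 7 duplicates (blue), the day 14 duplicates (red) and the mean of day 14 over the mean of day 7 (black). The curves of duplicates and days overlie each other, with an SD of 0.485 for the day 7 duplicates and 0.392 for the day 14 duplicates. The black curve compares means over the libraries of a day, which carry less library noise than single libraries.

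The gene that passed was Tpbgl (chromosome 7, 99624082 to 99627103, minus strand, GRCm38), a protein-coding gene named for its likeness to trophoblast glycoprotein. It was at 2.68 and 2.98 CPM at day 7 and at 23.2 and 24.9 CPM at day 14. Both day 14 libraries lay far above both day 7 libraries, and the duplicates of each day were close. The log2 fold change was 3.08 with a standard error of 0.19 and an adjusted p of 0.045. When each library was left out in turn, its log2 fold change lay between 3.01 and 3.18, but the adjusted p was 0.052 without day 7 replicate 1, 0.123 without day 14 replicate 1 and 0.136 without day 14 replicate 2. In cells thinned to 5000 UMIs, 1.22% and 1.45% of day 7 cells and 11.4% and 13.2% of day 14 cells had a Tpbgl UMI. None of the 329 feeder cells of that depth had a Tpbgl UMI, which allows a share of up to 0.912%, but 272 of them came from day 7 replicate 1. At day 14, 0 of 29 feeder cells in replicate 1 allows up to 10.3%, and 0 of 18 in replicate 2 up to 16.7%, which is above the share seen there.

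Larger but less even differences were seen for the gastrokines Gkn1 and Gkn2, secreted proteins known from the gastric mucosa. Gkn1 was at 14.1 and 14.2 CPM at day 7 and reached 419.9 and 213 CPM at day 14. The log2 fold change of Gkn1 was 4.49 (standard error 0.38) and its adjusted p 0.0542. Gkn2 went from 34.4 and 26.6 CPM to 979.8 and 351 CPM. The difference was 4.45 on the log2 scale (standard error 0.54), with an adjusted p of 0.0726. For both genes the days did not overlap and the day 14 duplicates were far apart, with replicate 1 the higher. Both were called by DESeq2, whose adjusted p was 3.6e-36 and 7.1e-22.

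Gkn1 and Gkn2 lie close together on chromosome 6 (87345650 to 87350942 on the minus strand and 87373357 to 87379497 on the plus strand, GRCm38), transcribed away from each other from RefSeq starts 22450 bases apart. The 250 bases before the start of each gene (RefSeq, GRCm38.p6) are shown because both genes had such differences. The search was for AGATAA, 1 form of the site bound by GATA factors, on both strands, and capitals mark a match. Other forms that contain GATA, such as TGATAA, were not searched for and stay in lower case where a window holds them. The Gkn1 window is chr6:87350916-87351165 on the minus strand and the Gkn2 window chr6:87373115-87373364 on the plus strand.
Gkn1: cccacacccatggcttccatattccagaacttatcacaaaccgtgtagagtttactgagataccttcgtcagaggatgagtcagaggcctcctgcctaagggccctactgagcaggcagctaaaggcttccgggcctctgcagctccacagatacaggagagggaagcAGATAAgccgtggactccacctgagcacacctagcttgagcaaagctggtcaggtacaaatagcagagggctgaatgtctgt
Gkn2: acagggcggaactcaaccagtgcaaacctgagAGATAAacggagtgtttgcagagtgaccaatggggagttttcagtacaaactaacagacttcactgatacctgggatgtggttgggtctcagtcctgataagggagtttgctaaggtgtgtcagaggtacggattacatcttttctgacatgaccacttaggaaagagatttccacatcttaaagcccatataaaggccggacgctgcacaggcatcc
Each window held 1 match to AGATAA, which ended 77 bases before the start of Gkn1 and 213 bases before that of Gkn2. The motif was present in 9.99% of all 32851 windows of this length.

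The gastrokine UMIs were concentrated in part of the cells. In cells thinned to 5000 UMIs, at least 1 UMI of Gkn1 or Gkn2 was found in 8.7% and 7.76% of day 7 cells and in 60% and 37.9% of day 14 cells. At least 10 UMIs were found in 0.328% and 0.357% of day 7 cells and in 17.3% and 8.83% of day 14 cells, and 1 day 14 cell reached 461. The tenth of cells with the most gastrokine UMIs held 70% and 83% of them at day 14. Feeder cells, which should lack both genes, were used as a guide to free RNA. They were set apart by collagen UMIs alone, so a feeder caught together with another cell is also among them. Free RNA and such pairs of cells were not told apart. At day 14, 7 of 29 feeder cells of day 14 replicate 1 had a Gkn1 UMI (24.1%, against 37.6% of its other cells) and 6 of 29 a Gkn2 UMI (20.7%, against 53.6%). In replicate 2, 0 of 18 feeder cells had either, which allows up to 16.7%. At day 7 0 of 272 in replicate 1 allows up to 1.1%, and 0 of 10 in replicate 2 up to 30.0%, which is above the shares of the other cells there (4.03% for Gkn1 and 5.72% for Gkn2). The median feeder cell at day 14 had 11484 UMIs in replicate 1 and 13006 in replicate 2, close to the medians of the other cells. Among the remaining mucosal genes, the surface protein gene Psca was at 0.125 and 0.067 CPM at day 7 and at 3.8 and 0.741 CPM at day 14. The trefoil factors Tff2 and Tff3, gut mucosal peptides, were lower in both day 14 libraries (log2 fold changes -1.62 and -1.37), and Tff1 varied between duplicates from 31.4 to 294 CPM at day 14. Of 14 members of the mucosal list tested, 6 lay higher and 3 lower without overlap. Their median log2 fold change was 0.64, with 0.24 when day 14 replicate 2 was left out and 1.12 when day 7 replicate 2 was.

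**Figure D2:**
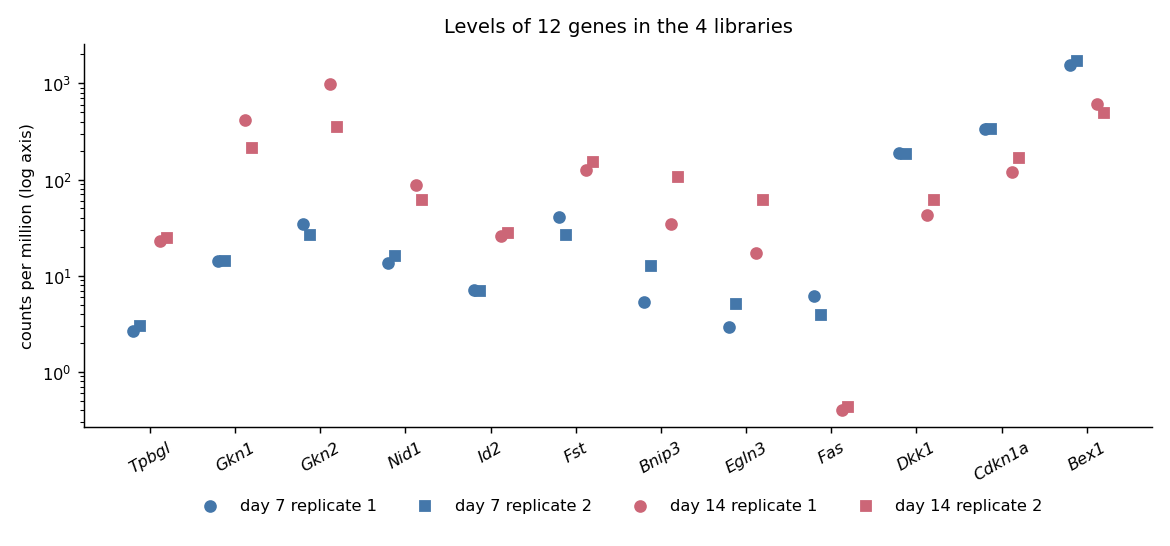
CPM (log axis) of 12 genes in each of the 4 libraries, blue for day 7 and red for day 14, circles for replicate 1 and squares for replicate 2. The gastrokines have the largest log2 fold changes shown (4.49 and 4.45), Fas the lowest (-3.57), and the duplicates of Tpbgl lie close together on each day.

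Many genes of parietal endoderm and its basement membrane lay higher at day 14. The list also holds keratins, matrix-processing enzymes and parietal endoderm markers such as Pth1r, Snai1 and Stra6. Of 26 members tested, 14 lay above day 7 in both libraries (53.8%, against 22.8% of all genes) and 3 below, and 14 against 2 had an unadjusted p under 0.05. None passed the adjusted test, and DESeq2 called 12 higher and 0 lower. The median log2 fold change was 0.59, against 0.00 over all genes tested, and lay between 0.52 and 0.69 under the alternatives tried. Nid1, which encodes nidogen 1, the linker between laminin and collagen IV, was at 13.4 and 16.1 CPM at day 7 and at 87.9 and 61.8 CPM at day 14 (log2 fold change 2.34, standard error 0.24, adjusted p = 0.0542). Both chains of collagen IV were higher: Col4a1 was at 1212 and 1075 CPM at day 7, against 1818 and 1817 CPM later. Col4a2 was at 863 and 954 CPM, against 1524 and 1517 CPM later. The laminin chains Lama1, Lamb1 and Lamc1 had log2 fold changes of 0.78, 0.97 and 0.92. The collagen-modifying enzymes went the same way, with Plod2 at 85.3 and 115 CPM against 235 and 345 CPM, and with log2 fold changes of 1.05 for Plod1, 1.04 for P4ha1 and 0.51 for P4ha2. Sparc, the most abundant member, which encodes a collagen-binding matrix protein, overlapped between the days (3893 and 5708 against 5085 and 5392 CPM). Nid2 and the keratin gene Krt18 were the members lower in both libraries with an unadjusted p under 0.05 (log2 fold changes -0.50 and -0.53). The summed fibroblast markers given above were highest in day 7 replicate 1, and their part in these differences was not tested.

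The transcription factors and receptors of the primitive endoderm had smaller differences of the same direction. Of 19 tested, 11 lay higher (57.9%, against 22.8% of all genes) and 1 lower without overlap. At an unadjusted p under 0.05 the counts were 6 and 0, and the median log2 fold change was 0.38. Gata6 was at 75.9 and 70.1 CPM at day 7 and at 129 and 108 CPM at day 14 (log2 fold change 0.70, adjusted p = 0.229). Gata4 was at 70.6 and 57.3 CPM and then at 92.3 and 91.2 CPM (log2 fold change 0.52, adjusted p = 0.327). Cells with a Gata6 UMI at 5000 UMIs made up 27.7% and 27.5% at day 7 and 44.2% and 41.9% at day 14, against 1.1% and 0% of feeder cells at day 7 and 3.45% and 16.7% at day 14. Pdgfra, the receptor that marks this lineage, was at 44.6 and 57.8 CPM and then at 70.1 and 70.8 CPM, and Sox7 had a log2 fold change of 1.34. Sox17 overlapped between the days (109 and 239 against 166 and 238 CPM).

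Signalling genes included Id2, a BMP target that encodes an inhibitor of helix-loop-helix factors, which was nearly equal within each day. It was at 7.1 and 6.91 CPM at day 7 and at 25.8 and 27.6 CPM at day 14 (log2 fold change 1.93, standard error 0.17, adjusted p = 0.0542). Id1 of the same list overlapped between the days (31.7 and 50.6 against 23.8 and 48.7 CPM, scaled over all 20 libraries). So did Id3 (22.9 and 27.3 against 12.8 and 32.2 CPM on that scale). Fst, which encodes the activin antagonist follistatin, was at 40.6 and 26.2 CPM and then at 126 and 151 CPM. The BMP ligand gene Bmp2 and the BMP antagonist gene Nog had log2 fold changes of 1.21 and 1.81, while the ligand gene Tgfb2 was lower (7.6 and 12.4 against 2.64 and 1.53 CPM). Over the 21 tested members of the TGF-beta, BMP and activin list, 6 lay higher and 4 lower, close to the shares over all genes. In the LIF pathway 5 of 11 genes lay higher (45.5%, against 22.8% of all genes) and 0 lower. The list's median log2 fold change was 0.12, or 0.03 without day 7 replicate 1. Among the higher genes were Lifr and Il6st, which encode the 2 chains of the LIF receptor, with log2 fold changes of 0.87 and 0.55. The FGF list had 8 of 18 higher, including the ligand gene Fgf10 (4.11 and 6.74 against 16.4 and 19 CPM), and 4 lower. The median log2 fold change of the FGF list was 0.40, or -0.01 without day 14 replicate 1.

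Glycolysis and hypoxia genes lay higher at day 14 in 14 of 23 members tested (60.9%) and lower in 0, with 11 and 0 at an unadjusted p under 0.05, a median log2 fold change of 0.57 (0.38 without day 14 replicate 2) and none past the adjusted test. DESeq2 called 6 of them. Large differences were seen in genes known as targets of the hypoxia-inducible factor HIF. Bnip3, which encodes a mitophagy receptor, was at 5.27 and 12.6 CPM at day 7 and at 34.2 and 107 CPM at day 14 (log2 fold change 2.97, adjusted p = 0.184). Egln3, which encodes a prolyl hydroxylase acting on HIF, was at 2.91 and 5.09 CPM and then at 17.3 and 60.5 CPM (log2 fold change 3.27, adjusted p = 0.157). Slc16a3, the gene of a lactate exporter, was at 0.664 and 3.64 CPM and then at 12.5 and 45.7 CPM. Ankrd37 had a log2 fold change of 2.68 and Pdk1, which encodes the kinase that shuts pyruvate out of the mitochondria, 2.70. For each of these 5 genes replicate 2 was the higher library on both days, and the days did not overlap. In replicate 2 of day 14, 38.3% of cells at 5000 UMIs had a Bnip3 UMI, against 13.6% in replicate 1 and 2.76% and 5.58% at day 7. The share was 33.3% and 0% in the feeder cells of these day 14 libraries and 6.25% and 20% in those of day 7, so the day 7 shares lie at or below that of feeder cells. The enzymes of glycolysis differed less: Gapdh overlapped (3353 and 3802 against 3147 and 3907 CPM), and ALDOA was at 562 and 635 CPM and then at 730 and 906 CPM.

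Windows of 250 bases before the start of 4 of these genes are shown with matches to ACGTG, the core of the hypoxia response element, in capitals (both strands, RefSeq, GRCm38.p6). Bnip3 is read from chr7:138909507-138909756 on the minus strand, Egln3 from chr12:54203875-54204124 on the minus strand, Ankrd37 from chr8:45999851-46000100 on the minus strand and Slc16a3 from chr11:120948817-120949066 on the plus strand.
Bnip3: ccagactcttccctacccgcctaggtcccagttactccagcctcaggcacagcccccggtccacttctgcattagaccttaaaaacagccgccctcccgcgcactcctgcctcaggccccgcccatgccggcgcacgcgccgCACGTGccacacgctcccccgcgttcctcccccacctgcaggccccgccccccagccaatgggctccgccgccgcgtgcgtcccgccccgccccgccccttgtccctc
Egln3: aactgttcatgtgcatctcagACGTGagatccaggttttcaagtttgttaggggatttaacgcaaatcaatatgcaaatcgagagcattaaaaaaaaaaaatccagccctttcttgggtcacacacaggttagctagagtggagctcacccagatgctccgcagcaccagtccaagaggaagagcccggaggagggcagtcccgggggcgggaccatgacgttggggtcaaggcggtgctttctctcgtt
Ankrd37: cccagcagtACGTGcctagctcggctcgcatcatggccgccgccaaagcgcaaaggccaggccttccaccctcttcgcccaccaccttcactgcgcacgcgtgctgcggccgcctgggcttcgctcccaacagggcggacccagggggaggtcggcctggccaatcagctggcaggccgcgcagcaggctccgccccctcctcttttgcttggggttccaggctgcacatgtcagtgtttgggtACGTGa
Slc16a3: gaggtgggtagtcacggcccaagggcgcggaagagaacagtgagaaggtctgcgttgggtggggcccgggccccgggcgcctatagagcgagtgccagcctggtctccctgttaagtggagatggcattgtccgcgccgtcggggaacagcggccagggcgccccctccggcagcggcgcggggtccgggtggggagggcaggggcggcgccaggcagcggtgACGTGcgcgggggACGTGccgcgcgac
The 2 matches of Bnip3 overlap as CACGTG, which is also the letters of an E-box. Of 20 tested members of the list with a window, 12 held the motif (60%), against 18.5% of all 27025 genes. Counted by window, the shares were 44.8% and 16.6%. The list includes genes known as HIF targets, so these shares do not bear on the difference between the days. Whether HIF had a part in that difference was not tested. Eno1, Gapdh, Gpi1, Hk1, Pdk1, Pfkl, Pfkp and Tpi1 were without a match. For comparison, AGATAA was found before 2 of 18 genes of the parietal endoderm and basement membrane list (11.1%), against 11.4% of all genes. These were the keratin gene Krt8 and the retinol receptor gene Stra6.

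Targets of p53, the transcription factor that arrests the cell cycle after damage, were listed together with growth arrest genes such as Cdkn1b, Cdkn1c, Cdkn2a and Cdkn2b, and most of this list lay lower at day 14. Of 19 genes tested, 14 lay below day 7 in both day 14 libraries (73.7%, against 22.2% of all genes) and 3 above. The same numbers at an unadjusted p under 0.05 were 14 and 1, none passed the adjusted test, and DESeq2 called 12 lower and 0 higher. The median log2 fold change was -0.77 and lay between -0.89 and -0.75 under the alternatives tried. The list's median in single libraries, relative to the day 7 mean, was 0.02 and -0.02 at day 7 and -0.87 and -0.73 at day 14. Cdkn1a, which encodes the cell cycle inhibitor p21, was at 339 and 332 CPM at day 7 and at 118 and 167 CPM at day 14 (log2 fold change -1.23, standard error 0.23, adjusted p = 0.152). At 5000 UMIs, 56.8% and 60.7% of day 7 cells and 26.1% and 39.9% of day 14 cells had a Cdkn1a UMI. In feeder cells the share with a Cdkn1a UMI was 89.7% to 100%, and the part of feeder RNA in the difference was not tested. Fas, the gene of a death receptor, was at 6.08 and 3.89 CPM and then at 0.4 and 0.432 CPM (log2 fold change -3.57, adjusted p = 0.0542). Mdm2, which encodes the ubiquitin ligase of p53, was at 58 and 58 CPM and then at 29.3 and 38.3 CPM. Ccng1 was at 152 and 107 CPM and then at 69.9 and 69.5 CPM, and Phlda3, Zmat3, Plk2 and Aen had log2 fold changes between -0.94 and -0.71. Cdkn2a and Cdkn2b, inhibitor genes that also hold back reprogramming, had log2 fold changes of -0.70 and -1.16. Bax overlapped (679 and 478 against 480 and 406 CPM), and Cdkn1c, an imprinted inhibitor gene, was higher (2.1 and 3.35 against 4.29 and 10.8 CPM). The 31 cell cycle genes tested were divided evenly, with 7 higher, 7 lower and a median log2 fold change of -0.09, or 0.03 without day 7 replicate 1.

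**Figure D3:**
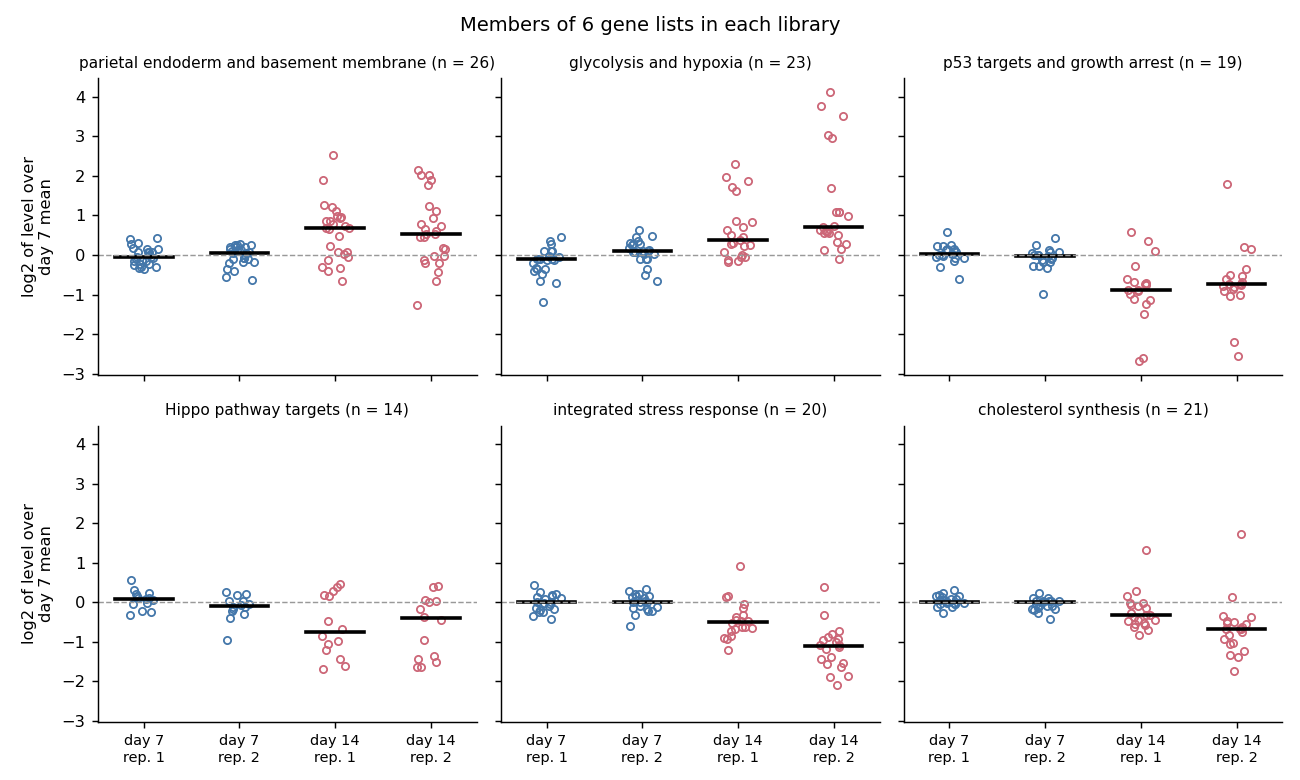
Each circle is a tested member of a gene list (x axis, the 4 libraries), drawn as log2 of its CPM plus 0.5 over the same for the day 7 mean (y axis), and black bars are medians. The median of the p53 and growth arrest list is at -0.87 and -0.73 in the day 14 libraries, while those of the integrated stress response (-0.50 and -1.11) and of cholesterol synthesis (-0.32 and -0.67) are lower in replicate 2.

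Genes of the integrated stress response, which cells use to meet amino acid shortage and misfolded protein through the factor Atf4, were lower at day 14 in 16 of 20 members (80%) and higher in 1. At an unadjusted p under 0.05 the counts were 11 lower and 0 higher, none passed the adjusted test, and DESeq2 called 2 lower. The median log2 fold change was -0.81. Asns, which encodes asparagine synthetase, was at 205 and 280 CPM at day 7 and at 134 and 108 CPM at day 14 (log2 fold change -1.01, adjusted p = 0.206). Phgdh, the first enzyme gene of serine synthesis, was at 204 and 246 CPM and then at 117 and 116 CPM (log2 fold change -0.94, adjusted p = 0.175). Atf4 was at 233 and 300 CPM and then at 186 and 145 CPM. DDIT3, a factor of prolonged stress, was at 67.1 and 84.8 CPM and then at 48.8 and 24 CPM, and Trib3 at 33.7 and 47 CPM and then at 25 and 10.6 CPM. Slc3a2, a chain of amino acid transporters, was at 234 and 396 CPM and then at 205 and 166 CPM. Nupr1 did not follow the list (275 and 317 against 559 and 147 CPM). The list's median was -0.50 without day 14 replicate 2 and -1.17 without day 14 replicate 1, so its size rests on which day 14 library is used while its sign did not change.

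Cholesterol synthesis genes were lower without overlap in 16 of 21 members (76.2%) and higher in 2, with 10 and 1 at an unadjusted p under 0.05 and a median log2 fold change of -0.56, or -0.32 without day 14 replicate 2. None passed the adjusted test, and DESeq2 called 2 lower and 1 higher. Msmo1, a sterol oxidase gene, was at 52.3 and 54.5 CPM and then at 29.7 and 15.7 CPM (log2 fold change -1.23, adjusted p = 0.218), and Fdft1, which encodes squalene synthase, was at 33.4 and 39 CPM and then at 24.8 and 22.6 CPM. The 2 members that lay higher were Stard4, a sterol transfer protein gene (log2 fold change 0.21), and Insig1, whose product retains the sterol sensor in the endoplasmic reticulum. Insig1 was at 16.9 and 9.98 CPM at day 7 and at 34.6 and 45.5 CPM at day 14 (log2 fold change 1.58, adjusted p = 0.15).

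Of 14 tested genes of the Hippo list, 8 lay lower (57.1%) and 1 higher, with 6 and 0 at an unadjusted p under 0.05, 6 called by DESeq2 and a median log2 fold change of -0.70, or -0.43 without day 14 replicate 1. The genes of the Yap and Tead complex itself were not among the lower members: Yap1 and Wwtr1 overlapped between the days, and Tead1 was slightly higher (log2 fold change 0.39). CTGF, a matricellular gene widely read as a Yap target, was at 159 and 165 CPM and then at 82.2 and 63.4 CPM (log2 fold change -1.16, adjusted p = 0.136). The small heat shock gene Cryab was at 472 and 284 CPM and then at 164 and 122 CPM, and F3, the tissue factor gene, was at 475 and 714 CPM and then at 332 and 189 CPM. CYR61, another commonly read target, overlapped (102 and 142 against 76.2 and 161 CPM).

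Of 22 epithelial genes tested, 10 lay lower (45.5%, against 22.2% of all genes) and 4 higher (18.2%, against 22.8%). At an unadjusted p under 0.05 the counts were 7 lower and 4 higher, none passed the adjusted test, and DESeq2 called 1 lower and 3 higher. The median log2 fold change was -0.49 and lay between -0.54 and -0.28 under the alternatives tried, with -0.32 when either day 7 library was left out. The tight junction genes Cldn4, Cldn6 and Cldn7 had log2 fold changes of -1.57, -1.08 and -1.20, while Itga6, a laminin receptor gene, was at 14.4 and 14.3 CPM and then at 41.8 and 32.5 CPM. Snai1, which encodes a repressor of epithelial genes, was at 13.1 and 20.7 CPM and then at 37 and 64.2 CPM, and Zeb1 had a log2 fold change of 1.99. Krt8, a keratin gene of simple epithelia, was at 459 and 498 CPM and then at 362 and 441 CPM. Of 17 Wnt genes tested, 5 lay higher (29.4%) and 7 lower (41.2%, against 22.2% of all genes), with a median log2 fold change of -0.60. Dkk1, which encodes a secreted Wnt antagonist, was at 190 and 183 CPM and then at 43 and 61 CPM (log2 fold change -1.84, standard error 0.23, adjusted p = 0.0748). At 5000 UMIs, 43.4% and 45.4% of day 7 cells and 13.2% and 20.3% of day 14 cells had a Dkk1 UMI, against 1.1% and 0% of feeder cells at day 7 and 3.45% and 11.1% at day 14. Tcf7l1, a repressor of Wnt targets, was at 29.7 and 34.5 CPM and then at 55.5 and 54.1 CPM.

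Interferon-stimulated and antigen presentation genes lay lower in 10 of 22 members (45.5%) and higher in 1, with a median log2 fold change of -0.78. That median was -0.51 without day 14 replicate 1, also -0.51 without day 7 replicate 2, and -1.23 without day 14 replicate 2. Bst2 was at 183 and 341 CPM and then at 41.2 and 122 CPM (log2 fold change -1.69, adjusted p = 0.299), and the class I gene H2-K1 at 72.6 and 134 CPM and then at 47.5 and 58.3 CPM. B2m, which encodes the light chain of class I molecules, overlapped (587 and 888 against 657 and 536 CPM). Several members, such as Ifit1 (1.6 and 0.669 against 0.067 and 0.247 CPM), were low throughout.

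**Figure D4:**
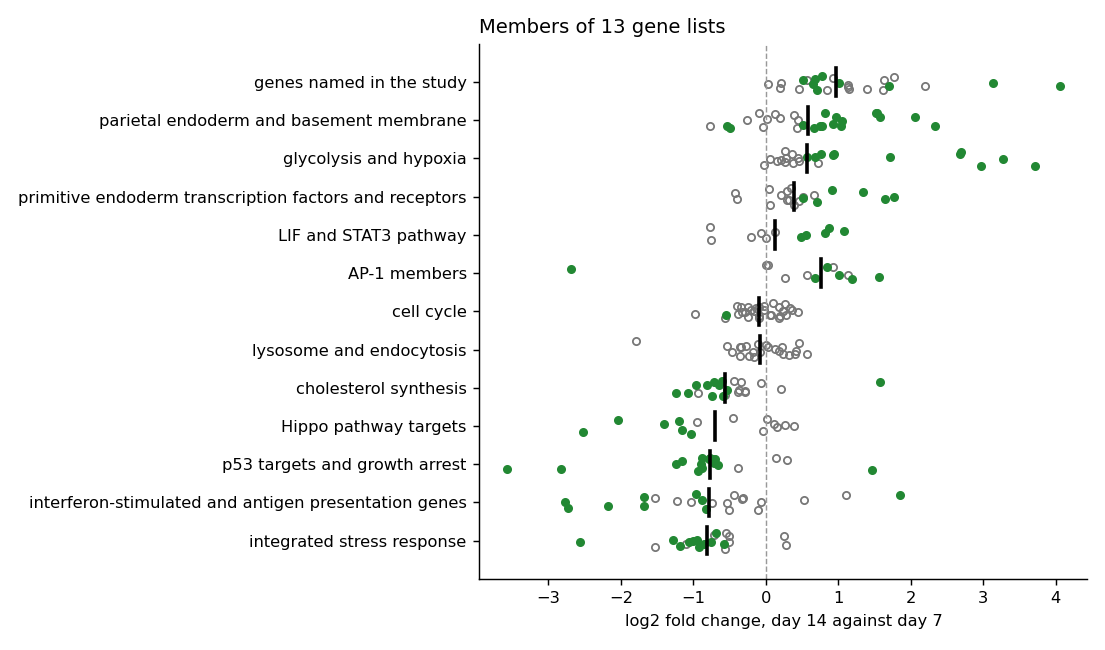
Log2 fold change of day 14 over day 7 (x axis) for the tested members of 13 gene lists; filled circles have an unadjusted p under 0.05, open circles do not, and bars mark medians. Medians run from 0.97 for the genes named in the study to -0.81 for the integrated stress response, and no gene shown passed the adjusted test.

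Of the 24 genes that the study itself follows, 17 lay higher and 0 lower, with a median log2 fold change of 0.97, 9 at an unadjusted p under 0.05 and none past the adjusted test. The median was 0.69 without day 7 replicate 1 and 1.69 without day 7 replicate 2. The study chose them on these samples, so their direction is not independent evidence. They combine pluripotency genes with endoderm, AP-1 and other regulators. Transcripts of the pluripotency genes were rare in these libraries at both days. Mixing fractions sorted by SSEA1 and Oct4-GFP in about equal parts bears on these levels. They therefore do not measure how the culture changed between the days. Pou5f1 overlapped between the days (2.01 and 14.1 against 13.3 and 22.6 CPM). At 5000 UMIs, 0.889% and 4.96% of day 7 cells and 4.41% and 6.94% of day 14 cells had a Pou5f1 UMI. In feeder cells the Pou5f1 share was 0.368% and 0% at day 7 and 0% and 27.8% (5 of 18) at day 14. Zfp42 was at 0.81 and 4.74 CPM and then at 12.3 and 6.97 CPM (log2 fold change 1.77, adjusted p = 0.399). Nanog was at 0.062 and 0.591 CPM and then at 1.55 and 0.587 CPM. Sox2 was at 0.042 and 0.245 CPM and then at 2.3 and 0.463 CPM (log2 fold change 3.13, adjusted p = 0.299). Dppa3 was at 0 and 0.089 CPM and then at 1.58 and 0.247 CPM, Esrrb at 0 and 0.212 CPM and then at 0.717 and 0.391 CPM, and Fgf4 at 0.042 and 0.792 CPM and then at 1.05 and 0.885 CPM. For all 10 markers of pluripotent cells, day 7 replicate 1 was the lowest library. Without it the median log2 fold change of these markers was 0.80, and without day 7 replicate 2 it was 4.28. Dppa5a, a gene of germ cells and naive pluripotent cells, was far more abundant. It was at 189.6 and 370.3 CPM and then at 618 and 585 CPM (log2 fold change 1.10, adjusted p = 0.277), and 25.9% and 25% of day 7 cells against 33.7% and 35.7% of day 14 cells had a UMI of it at 5000 UMIs. In feeder cells that share was 2.94% and 10% at day 7 and 10.3% and 27.8% (5 of 18) at day 14, and in XEN cells 0.218% and 0.301%.

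The remaining genes the study follows include transcription factors and DNA demethylases. Klf4, a cassette gene that the endogenous locus also transcribes, was at 102 and 93.8 CPM and then at 157 and 159 CPM (log2 fold change 0.69, adjusted p = 0.224). Mybl2, a cell cycle transcription factor gene, was at 35.4 and 38.7 CPM and then at 57.1 and 59.3 CPM, Tet1 at 4.36 and 5.72 CPM and then at 8.67 and 8.56 CPM, and Tet2 at 0.81 and 2.29 CPM and then at 3.27 and 3.64 CPM. Klf9 was at 36.2 and 45.9 CPM and then at 39.2 and 54.6 CPM, and Fut4, a fucosyltransferase gene, was at 0.208 and 0.123 CPM and then at 0.234 and 0.247 CPM. Of the immediate early factors, Egr1 was at 8.47 and 15.8 CPM and then at 25.9 and 53 CPM (log2 fold change 1.70, adjusted p = 0.221). Jun was at 118 and 161 CPM and then at 213 and 348 CPM, Fos at 56.9 and 72.6 CPM and then at 68.9 and 176 CPM, and Atf3 at 75.2 and 74.6 CPM and then at 53.7 and 99.5 CPM. Of the 12 AP-1 genes tested, 6 lay higher (50%, against 22.8% of all genes) and 1, Fosl1, lower. Their median log2 fold change was 0.76, or 0.32 without day 14 replicate 2. Over the 26 tested immediate early and dissociation stress genes, which respond to making a cell suspension, 4 lay higher and 7 lower and the median log2 fold change was 0.05, or -0.09 without day 7 replicate 2.

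Visceral endoderm genes, the other fate of this lineage, included genes of carrier proteins that were higher at day 14. Apoe was at 117 and 313 CPM and then at 375 and 495 CPM and Ttr, the transthyretin gene, at 101 and 227 CPM and then at 345 and 413 CPM, with day 7 replicate 1 the lowest library for both. Fgb, a fibrinogen chain, was at 0.125 and 0.714 CPM and then at 7.42 and 4.36 CPM. The fatty acid binding protein gene Fabp3 (2241 and 1346 against 1257 and 749 CPM) and the retinol carrier gene Rbp4 (215 and 251 against 176 and 102 CPM) were lower. Of 26 members tested, 10 lay higher and 5 lower. Their median log2 fold change was 0.19, or -0.003 without day 14 replicate 2 and 0.50 without day 7 replicate 2. Lysosomal genes, with 5 of 23 higher and 5 lower, and redox genes, with 4 of 25 higher and 6 lower, were near the shares over all genes. Of the 13 mitochondrial transcripts, mt-Co1 was at 4419 and 5101 CPM and then at 7987 and 9756 CPM (log2 fold change 0.90, adjusted p = 0.278), and the median over all 13 was 0.07, or 0.25 without day 7 replicate 1 and -0.09 without day 7 replicate 2. The mitochondrial share per cell given above was also higher at day 14, and its part in other differences was not tested. Of 14 DNA methylation genes 8 lay higher (57.1%, against 22.8% of all genes) and 2 lower, with a median log2 fold change of 0.27. Of 21 Polycomb and histone modifier genes 6 lay higher (28.6%) and 4 lower, with a median of 0.16. Each of these 2 lists had 1 member at an unadjusted p under 0.05.

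Some genes outside these lists, chosen after their values were seen, had gaps as wide. Bace2, a protease gene, was at 7.74 and 8.9 CPM and then at 47.3 and 39.9 CPM (log2 fold change 2.39, adjusted p = 0.0542). Clps, which encodes pancreatic colipase, was at 2.51 and 4.56 CPM and then at 30.3 and 24.2 CPM. Cited2, a transcriptional cofactor gene induced by hypoxia, was at 44.3 and 30.4 CPM and then at 126 and 104 CPM, and Kit, a growth factor receptor gene, was at 39.3 and 47.4 CPM and then at 112 and 83.5 CPM. In the other direction, Bex1 was at 1543 and 1694 CPM and then at 615 and 498 CPM (log2 fold change -1.54, adjusted p = 0.116). Gch1, which encodes the first enzyme of tetrahydrobiopterin synthesis, was at 123 and 189 CPM and then at 49.6 and 43.7 CPM. Cyp26a1, a retinoic acid hydroxylase gene, was at 270 and 343 CPM and then at 128 and 148 CPM, and Tnnc1, a troponin gene, was at 42.8 and 34.2 CPM and then at 8.74 and 11.1 CPM.

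Set beside the other conditions, Nid1, Id2, Bnip3 and Tpbgl, which were higher at day 14 than at day 7, were also higher in XEN cells, the uninduced starting line. These levels were scaled over all 20 libraries, and XEN and day 28 came from another sequencing project, so condition and project cannot be told apart and no test was made. The XEN cells had been kept on feeders in the same medium without doxycycline. For this conversion the study describes sorting and remixing at days 7, 14 and 28 and not for the XEN cells, so handling differed as well. XEN-iPS replicate 1 came from the same project as days 7 and 14, and XEN-iPS replicate 2 from a further project, with 28.5% of its cells removed as feeders. Nid1 was at 188 and 84.8 CPM in XEN, 14.4 and 18.4 at day 7, 94.5 and 68 at day 14 and 65.8 and 98.5 at day 28. Id2 was at 90.3 and 63.7 CPM in XEN, 7.61 and 7.88 at day 7 and 27.7 and 30.3 at day 14. Bnip3 was at 52.9 and 82.2 CPM in XEN, and Tpbgl at 39.7 and 25.1 CPM. Gkn1 was at 45.2 and 145 CPM in XEN and at 435 and 818 CPM at day 28, where its mean was the highest of the 5 conditions. Dkk1, Asns and Gch1 had their highest levels at day 7 among the 5 conditions. Gch1 was at 5.93 and 23.8 CPM in XEN and then at 131 and 216 CPM at day 7, and Asns was at 39.2 and 27.9 CPM in XEN and then at 219 and 320.0 CPM at day 7. Cdkn1a was at 353 and 579 CPM in XEN, 363 and 379 at day 7, 127 and 184 at day 14 and 136 and 106 at day 28. In XEN-iPS cells Nid1 was at 9.62 and 9.04 CPM, and Dkk1 at 1.33 and 0.101 CPM.

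**Figure D5:**
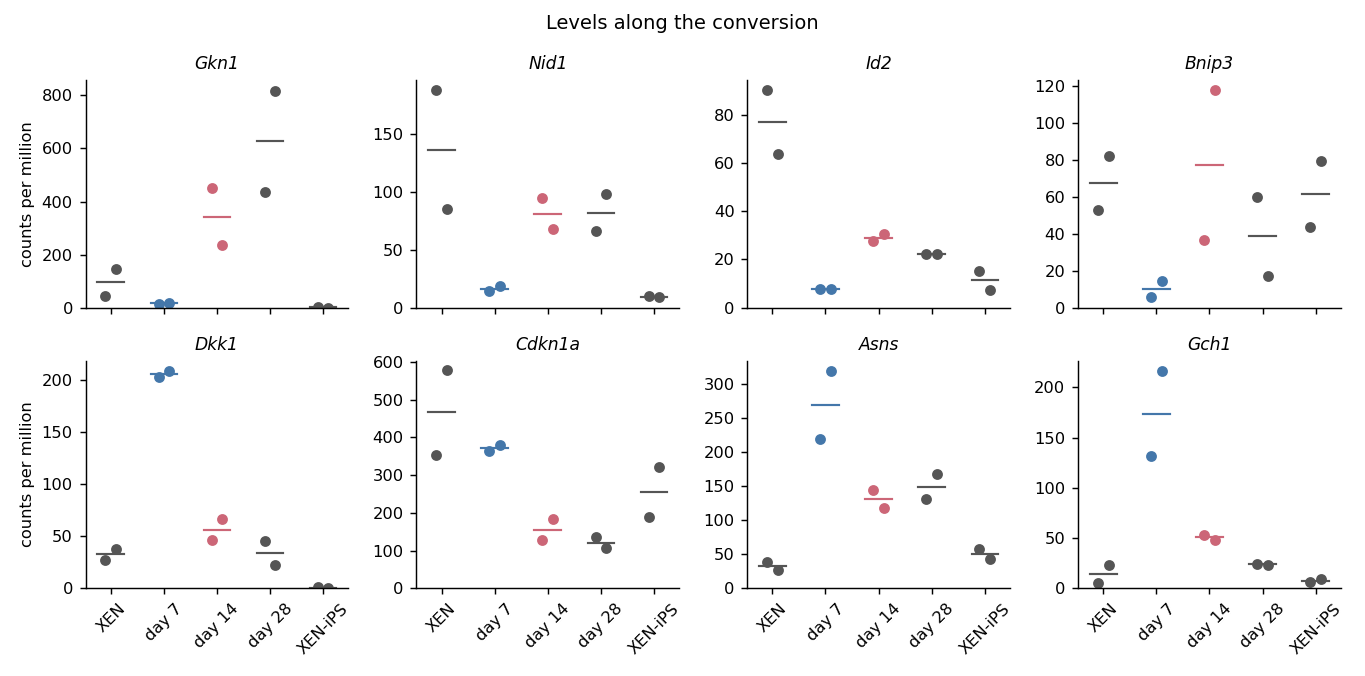
CPM (y axis, scaled over all 20 libraries) of 8 genes in the 2 libraries of XEN, day 7 (blue), day 14 (red), day 28 and XEN-iPS, with bars at the mean. Gkn1, Nid1, Id2 and Bnip3 are low at day 7 next to XEN and day 14, while Dkk1, Asns and Gch1 are highest at day 7.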

How the data were processed

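The authors made 10x Genomics 3' v2 libraries and ran SEQC against GRCm38 (mm10), which removed cells with a high mitochondrial share. The deposited values are raw UMI counts per cell and gene, with no normalization, and SEQC's version and annotation are not given in the sources used here. The deposited cluster numbers carry no names and were not used. Cells with at least 500 genes and under 5 collagen UMIs were kept, and their counts summed per library. Genes were placed with GENCODE vM21. Day 14 was compared with day 7 in the 4 libraries with edgeR 4.0.16 in R 4.3.3 (TMM, filterByExpr, quasi-likelihood test, Benjamini-Hochberg adjustment over 13782 genes, 2 residual degrees of freedom), and a gene was called at an adjusted p under 0.05. An exact permutation test of 2 against 2 libraries cannot go below 0.333 and was not used. DESeq2 1.42.0, with its NA values kept as NA, and other settings were alternatives. The edgeR procedure was tested on data simulated with the spread estimated from these libraries. It recovered 33 of 100 genes changed 2-fold and 97 of 100 changed 4-fold. Most 2-fold changes were thus missed in that simulation. Beside the recovered genes stood 19 false calls, a larger share of all calls than an adjusted p of 0.05 aims at. The changed genes were drawn from those above a low CPM limit, and many changed at once, which eases the adjustment. In the real data Gkn1 and Gkn2 differed by more than 4-fold without passing. Recovery at 4-fold is therefore no measure of power in this comparison. CPM are UMIs per 1000000, scaled by TMM. Shares of cells were taken after thinning to 5000 UMIs. Intervals and limits for counts of 0 (3 counts) cover counting error only.

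The lists and the rule for named genes were chosen with earlier results of these data known. The rule took up to 12 called genes in each direction with at least 20 CPM and no overlap, all genes the study follows, and of each other list up to 4 called genes and the 2 with the highest CPM. Other genes named in the text were chosen after their values were seen.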

Additional observations from a re-analysis of the deposited data

How the results depend on the processing

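The number of genes that passed depended strongly on the setting. In place of 1 gene (1 higher, 0 lower, 1 by at least 2-fold), DESeq2 called 544 (329 higher, 215 lower, 427 by at least 2-fold). Without a filter on low counts 683 passed (394, 289 and 557). With all 20 libraries in the model 64 passed (48, 16 and 63), and with the 10 libraries of the conversion 9 (9, 0 and 9). Cells thinned to 5000 UMIs gave 34 (28, 6 and 34). Leaving out cells with a Pou5f1 or Zfp42 UMI gave 26 (21, 5 and 26), as did a limit of 2 collagen UMIs (26, with 21, 5 and 26). Keeping the feeders gave 0, and so did leaving out the 6% of cells with the highest doublet scores, an alternative chosen after seeing the data. Leaving out 1 library gave between 0 and 321 genes (0 to 173 higher, 0 to 148 lower, 0 to 321 by at least 2-fold). The 321 came without day 7 replicate 2, and 0 came without day 7 replicate 1 or day 14 replicate 1. A lone library was then assumed to vary like the other day. RLE scaling and a limit of 1000 genes left the count at 1. Of the 544 genes of DESeq2, 498 also passed without the filter and 59 with all 20 libraries.

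The replicate block gave 201 genes (134 higher, 67 lower, 188 by at least 2-fold). The deviations of same-numbered libraries correlated at 0.249 over genes, but with 2 pairs the numbers are not shown to pair the libraries. The planned doublet threshold marked at most 2 cells per library, so that alternative was not usable. Tpbgl kept its direction under all 16 alternatives and passed in 11 of them, its adjusted p being 0.186 with feeders kept and 0.0526 without the highest doublet scores. Of the 37 lists, 20 kept the sign of their median under all alternatives, among them the lists of parietal endoderm and basement membrane, hypoxia, p53 and growth arrest, stress response, cholesterol and Hippo genes. The fibroblast markers had a median of -1.24 and of 0.92 without day 7 replicate 1. Of the 90 genes named by the rule, 23 had the other sign under some alternative. Thinning to 2000 UMIs or not at all moved 123 of 128 shares of cells past their intervals, as the depth itself sets them.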
